A study of Mus musculus with 10 samples.

Results

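The 9 ADAMTS genes described here are Adamts1, Adamts2, Adamts4, Adamts5, Adamts7, Adamts8, Adamts9, Adamts10 and Adamts15, which are 9 of the 23337 genes in a count table of heart muscle cells (cardiomyocytes) from 10 mice. They were chosen by name from that table, and the set was chosen on measured values, because Adamts8 was among the largest rises in this comparison. The levels and differences of the 9 genes are therefore a description and carry no test. The table holds 10 further ADAMTS genes, 19 in all, and these are given beside the 9.

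The 5 knockout mice were Actn2 F/F: both alleles of Actn2 were floxed. Actn2 encodes alpha-actinin-2, which cross-links actin at the Z-disc of the sarcomere. The 5 heterozygote mice, which served as controls, carried a floxed and a wild-type allele (Actn2 F/+). All 10 mice, controls included, received the virus AAV9-cTNT-Cre on postnatal day 1, in which a cardiac troponin T promoter drives the recombinase Cre in heart muscle cells. Cells were collected on postnatal day 14 by collagenase perfusion and fluorescence-activated sorting, and the submitters call the 5 mice of each group biological replicates.

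ADAMTS enzymes are secreted metalloproteases that cut proteins of the extracellular matrix. They are made as inactive precursors, lose their propeptide to furin-like convertases, and carry thrombospondin repeats that hold them near the cell surface or in the matrix. Family branches differ in what they cut: one group cleaves the hyaluronan-binding proteoglycans aggrecan and versican, another trims the amino-terminal propeptide from fibrillar procollagens, and another binds fibrillin microfibrils. In the heart the family is known for clearing versican-rich matrix during trabeculation and valve formation.

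The shared feature of the family is the zinc-binding site of the catalytic domain, in which histidines hold the metal that cuts the peptide bond. The coding sequence of this site is shown for the genes on which the results turn, to let the branches be compared: Adamts8, its chromosomal neighbour Adamts15, Adamts1 as the most abundant member, and the pair Adamts9 and Adamts20. Each line has 60 coding bases, 5′ to 3′, with the 36 bases of the site in capitals, from the GENCODE release 21 transcripts on GRCm38 (mm10). The stretch crosses an exon junction in each gene, so the coordinates span the intron as well.
Adamts8, chr9:30952709-30953393, plus strand: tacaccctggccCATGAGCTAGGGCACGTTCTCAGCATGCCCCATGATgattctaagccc
Adamts15, chr9:30911240-30911702, minus strand: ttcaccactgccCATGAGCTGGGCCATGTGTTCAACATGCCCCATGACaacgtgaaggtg
Adamts1, chr16:85799176-85799557, minus strand: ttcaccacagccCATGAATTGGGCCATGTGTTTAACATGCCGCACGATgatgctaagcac
Adamts9, chr6:92905270-92908505, minus strand: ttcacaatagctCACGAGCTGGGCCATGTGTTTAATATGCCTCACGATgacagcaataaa
Adamts20, chr15:94353663-94355308, minus strand: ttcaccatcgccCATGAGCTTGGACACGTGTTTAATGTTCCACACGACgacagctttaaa

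The site was found in the coding sequence of all 19 ADAMTS genes. Over its 36 bases, the other 18 genes matched Adamts8 at 22 to 29 positions, and Adamts15 had the 29. Along whole coding sequences, the longest run of bases that Adamts8 shared with another ADAMTS gene was 11 to 17. The table's gene model for Adamts9 (chr6:92772699-92901441, minus strand, 30 exons) does not reach the site printed above, which lies upstream of it in a reference transcript of 40 exons. The counts of Adamts9 thus come from the 3′ part of the gene.

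Library totals ranged from 8086656 to 25237696 counts, so that 3 counts corresponded to between 0.119 and 0.371 CPM, the read count normalised to library size. Actn2 was at 3181 ± 358 CPM in heterozygotes and 1217 ± 55.3 CPM in knockouts (SD, n = 5 each), a log2 ratio of knockout over heterozygote of -1.39 (SE 0.091), with no overlap between the groups. The 10 cardiomyocyte marker genes summed to between 105175 and 127926 CPM in heterozygotes and between 100030 and 125928 CPM in knockouts; 8 of the 10 had log2 ratios below zero, and Tnni3, cardiac troponin I, fell from 6811 ± 926 to 4718 ± 315 CPM without overlap (log2 ratio -0.53, adjusted p 0.00165). Of 11870 genes that passed the filter on low counts, 18.9% were called, meaning an adjusted p under 0.05 by the quasi-likelihood F test of edgeR, 10.2% being higher and 8.64% lower in knockouts, and 14.7% had groups that did not overlap. All 9 ADAMTS members passed the filter. Under that call 1 of the 9 was higher (Adamts8) and 1 lower (Adamts9), and 1 had groups that did not overlap (Adamts8). Since this contrast chose the set, nothing is read from these counts. Calls on members under other settings describe how the fit behaves and are not tests of the members. The median log2 ratio of the 9 was -0.33, with 4 above and 5 below zero, beside 0.00227 for all genes tested.

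Adamts8, a protease of the aggrecan- and versican-cleaving branch (chr9:30942563-30962858, plus strand, 9 exons), was low in heterozygotes and, by group mean, the third most abundant ADAMTS gene per length in knockouts. Heterozygotes 1 to 5 had 1.97, 3.19, 1.79, 1.11 and 0.689 CPM, from 47, 26, 14, 10 and 7 counts. Knockouts 1 to 5 had 26.7, 26.5, 23.8, 14.9 and 18.96 CPM, from 256, 347, 244, 145 and 335 counts. Every knockout was above every heterozygote, and the lowest knockout, number 4, was still several times the highest heterozygote, number 2. The means were 1.75 ± 0.958 and 22.2 ± 5.12 CPM (SD, n = 5 each), a log2 ratio of 3.66 (SE 0.296), or 12.6-fold. By log2 ratio Adamts8 had rank 22 among the 2241 genes called in either direction. Leaving out any 1 animal gave log2 ratios of 3.46 to 3.92.

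**Figure D1:**
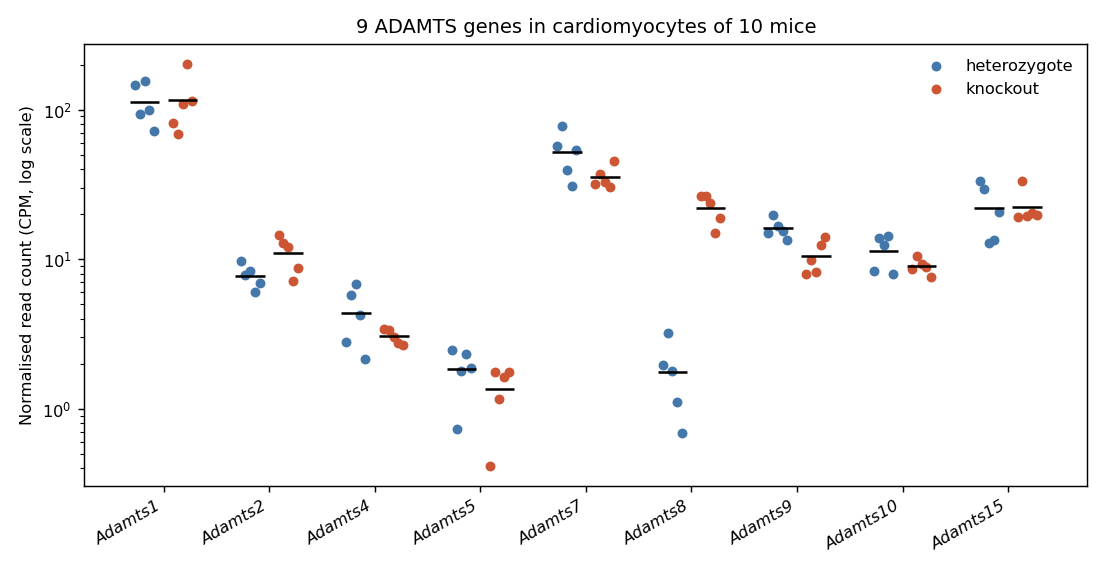
Level of each of the 9 ADAMTS genes in each mouse, in CPM on a log axis; points are single animals (blue, heterozygote; orange, knockout) and bars are group means. For Adamts8 the 5 knockouts sit between 14.9 and 26.7 CPM, above all heterozygotes, and for the other 8 genes the groups overlap.

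In the other proteoglycan-cleaving members the groups overlapped. Adamts1 (chr16:85793828-85803115), a versican-cleaving protease and the most abundant member, had 146, 93.0, 156, 98.9 and 72.4 CPM in heterozygotes 1 to 5. In knockouts 1 to 5 it had 81.8, 68.7, 110, 201 and 114 CPM. Both groups were scattered, their ranges overlapped and their means nearly coincided, 113 ± 35.97 and 115 ± 51.8 CPM (log2 ratio 0.02, SE 0.267). Adamts15 (chr9:30899155-30922452, minus strand), another versican-cleaving member, had 33.1, 29.5, 12.8, 13.5 and 20.8 CPM in heterozygotes 1 to 5. Its knockouts had 19.2, 33.5, 19.3, 20.4 and 19.8 CPM. Knockout 2 stood above the other 4 knockouts, which lay close together and inside the range of the heterozygotes (21.9 ± 9.18 and 22.4 ± 6.22 CPM; log2 ratio 0.02, SE 0.255).

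Adamts4 (chr1:171250422-171259922) and Adamts5 (chr16:85858157-85901125), known as the main aggrecan-cleaving enzymes of cartilage, were low in both groups. Adamts4 was at 2.81, 5.77, 6.79, 4.22 and 2.16 CPM in heterozygotes 1 to 5 and between 2.66 and 3.44 CPM in the knockouts. The heterozygotes were the more scattered group and enclosed all knockouts (4.35 ± 1.95 and 3.05 ± 0.345 CPM; log2 ratio -0.48, SE 0.293). Adamts5 rested on 6 to 59 counts in heterozygotes and 4 to 31 in knockouts, and was at 1.84 ± 0.683 and 1.35 ± 0.574 CPM (log2 ratio -0.45, SE 0.378). The difference in Adamts5 was about the size of its SE, and the ranges overlapped.

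Adamts9 and Adamts20 form the pair of the family with a GON domain, named after a gonad-shaping protease of the worm, and both are known to cleave versican. In heterozygotes 1 to 5 Adamts9 had 14.9, 19.8, 16.8, 15.5 and 13.4 CPM. The knockout values, in the same order, were 7.91, 9.93, 8.19, 12.5 and 14.0 CPM. Knockouts 1 to 4 were below all heterozygotes and knockout 5 lay among them (16.1 ± 2.40 and 10.5 ± 2.69 CPM; log2 ratio -0.60, SE 0.178). Leaving out any 1 mouse gave log2 ratios of -0.73 to -0.52 for Adamts9. All 12 endothelial marker genes had log2 ratios below zero, and 2 of them (Egfl7 and Cldn5) were called lower, beside 8.64% of all tested genes. The summed level of the 12 was 582 to 967 CPM in heterozygotes and 411 to 703 CPM in knockouts. Their median log2 ratio was -0.43. Medians of other lists were also below zero: -0.84 for macrophage and leukocyte, -0.33 for smooth-muscle and pericyte, and -0.24 for fibroblast markers. A link of any of these lists to Adamts9 was not tested. With the mean level of the endothelial markers as a covariate, the log2 ratio of Adamts9 was -0.59. That covariate itself differed between the groups, and with it 1117 genes were called in place of 2241. In sorted bulk samples, fewer cells of a type and less RNA per cell cannot be told apart.

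Adamts20 (chr15:94270163-94404350, minus strand, 39 exons), which is not among the 9, rose. Heterozygotes 1 to 5 had 0.588, 0.860, 1.67, 0.666 and 0.197 CPM, from 14, 7, 13, 6 and 2 counts. Knockouts 1 to 5 had 16.2, 9.24, 20.8, 4.62 and 11.4 CPM, from 156, 121, 213, 45 and 201 counts. All knockouts were above all heterozygotes, and knockout 4 was the lowest knockout, as it was for Adamts8. The log2 ratio was 4.05 (SE 0.459). Adamts20 passed the filter only through its knockout levels, so its edgeR adjusted p, 3.73e-05, is given as a description. Scaled to exon length, Adamts20 made up 3.16 ± 1.97% of the summed level of the pair in heterozygotes and 43.4 ± 17.7% in knockouts, with single knockouts between 20.2% and 63.6%.

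**Figure D2:**
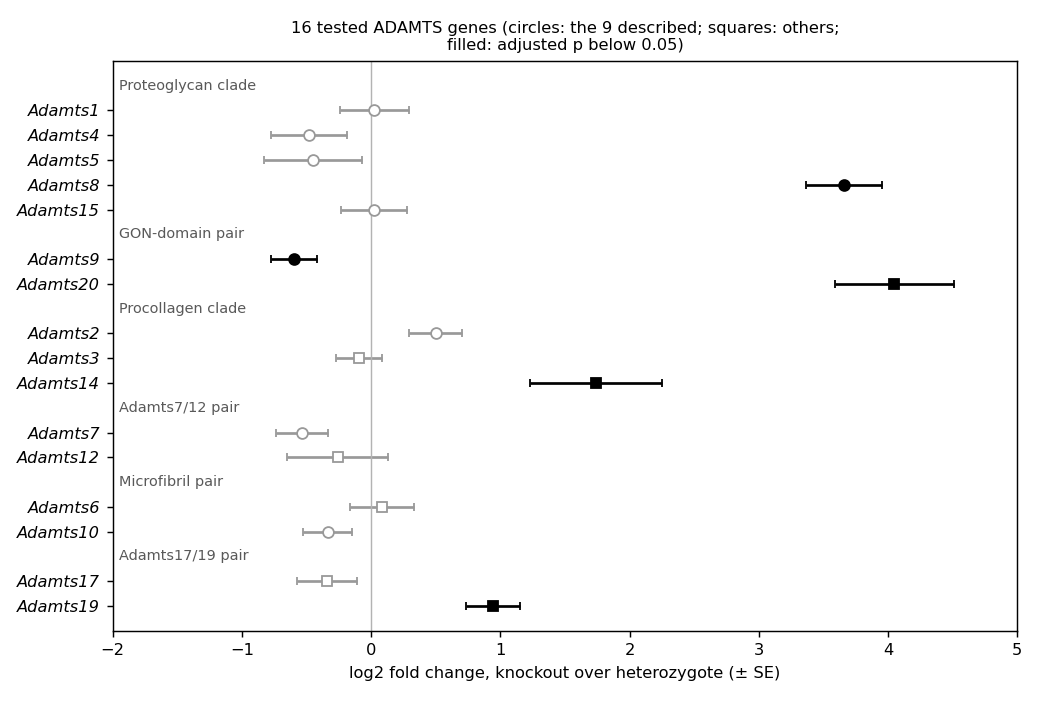
Log2 fold change of knockout over heterozygote for the 16 ADAMTS genes that passed the filter, grouped by branch; bars are ± SE of the edgeR fit, circles are the 9 genes described, squares the others, and filled symbols have an adjusted p below 0.05. For the 9 genes, Adamts14 and Adamts20 the fill is a description, not a test. Adamts8 (3.66) and Adamts20 (4.05) lie far to the right of their branch partners Adamts15 (0.02) and Adamts9 (-0.60).

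Adamts2, Adamts3 and Adamts14 are the procollagen N-propeptidases, which trim fibrillar collagens before they assemble. Adamts2 (chr11:50602085-50804049) had 9.66, 7.86, 8.33, 5.99 and 6.89 CPM in heterozygotes 1 to 5. Its knockouts ran from 7.18 CPM in knockout 4 to 14.6 CPM in knockout 1. Knockouts 1, 2 and 3 were above all heterozygotes and knockouts 4 and 5 within them (7.75 ± 1.398 and 11.1 ± 3.02 CPM; log2 ratio 0.50, SE 0.205). The log2 ratio of Adamts2 ran from 0.39 to 0.62 with 1 mouse left out and from 0.33 to 0.58 under the other settings. Adamts14 was at 0.727 ± 0.584 and 2.34 ± 1.09 CPM, on 1 to 12 counts in heterozygotes and 9 to 36 in knockouts. The groups overlapped: knockout 4, at 0.924 CPM, lay below heterozygotes 2 and 4, at 1.47 and 1.22 CPM. Adamts14 was called higher (log2 ratio 1.74, SE 0.510, edgeR adjusted p 0.0281). It passed the filter only through its knockout levels, so this adjusted p and those below are given as a description. That call ended when any of heterozygotes 1, 3 and 5 or knockouts 1, 2 and 3 was left out (adjusted p 0.0534 to 0.0807), and with the endothelial covariate (adjusted p 0.111). Adamts3 was at 15.2 ± 3.10 and 14.3 ± 3.15 CPM (adjusted p 0.765).

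Adamts7 (chr9:90162978-90200102), which cleaves cartilage oligomeric matrix protein, was the second most abundant member per length. Heterozygotes 1 to 5 had 57.2, 77.5, 39.6, 31.0 and 53.8 CPM, and knockouts 1 to 5 had 31.9, 37.3, 32.9, 30.6 and 45.7 CPM. Heterozygotes 1, 2 and 5 were above all knockouts and heterozygotes 3 and 4 among them (51.8 ± 17.9 and 35.7 ± 6.14 CPM; log2 ratio -0.54, SE 0.201). With the endothelial covariate the log2 ratio of Adamts7 was -0.94. It ran from -0.67 to -0.35 with 1 mouse left out. Its branch partner Adamts12 was at 1.79 ± 0.877 and 1.45 ± 0.344 CPM (adjusted p 0.699).

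Adamts10 (chr17:33524196-33553782), a microfibril-binding member linked to Weill-Marchesani syndrome, had 8.40, 13.9, 12.4, 14.3 and 7.97 CPM in heterozygotes 1 to 5. Its knockouts had 8.64, 10.5, 9.27, 8.83 and 7.58 CPM. Heterozygotes 2, 3 and 4 lay above the knockouts and heterozygotes 1 and 5 among them (11.4 ± 3.02 and 8.97 ± 1.07 CPM; log2 ratio -0.33, SE 0.189, and 0.01 with the endothelial covariate). Its partner Adamts6 was at 3.06 ± 0.371 and 3.22 ± 0.999 CPM (adjusted p 0.855).

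Adamts19 (chr18:58836764-59053678), a gene linked to heart valve disease, rose from 7.94 ± 2.02 to 15.4 ± 3.82 CPM, and the groups did not overlap (log2 ratio 0.94, SE 0.208; adjusted p 0.00587, and 0.0949 with the endothelial covariate). Its partner Adamts17 was at 6.45 ± 1.66 and 5.01 ± 1.20 CPM (adjusted p 0.339). Of the 10 further ADAMTS genes, 7 passed the filter and 3 of these were called higher (Adamts14, Adamts19 and Adamts20), beside 10.2% of all tested genes. With so few genes, and with the limits given above for Adamts14 and Adamts20, nothing is read from this count about the family. The remaining 3 were at or near no counts: Adamts13, the von Willebrand factor protease of blood, had at most 1 count in a library, Adamts16 at most 3, and Adamts18 none in any library, which allows up to 0.119 to 0.371 CPM.

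Counts divided by exon length allow levels of different genes to be set side by side. On this scale the 9 members together were at 46.0 ± 8.82 CPM per kb in heterozygotes and 48.0 ± 8.01 in knockouts, with ranges of 35.4 to 54.9 and 41.6 to 61.6. The ranges of the sum overlapped between the groups. Adamts8 was 0.990%, 1.76%, 0.948%, 0.809% and 0.535% of the sum in heterozygotes 1 to 5. Its shares in the knockouts, in the same order, were 17.6%, 17.1%, 14.2%, 6.65% and 10.9%. The mean share was 1.01 ± 0.458% and 13.3 ± 4.58%, and all knockouts were above all heterozygotes.

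**Figure D3:**
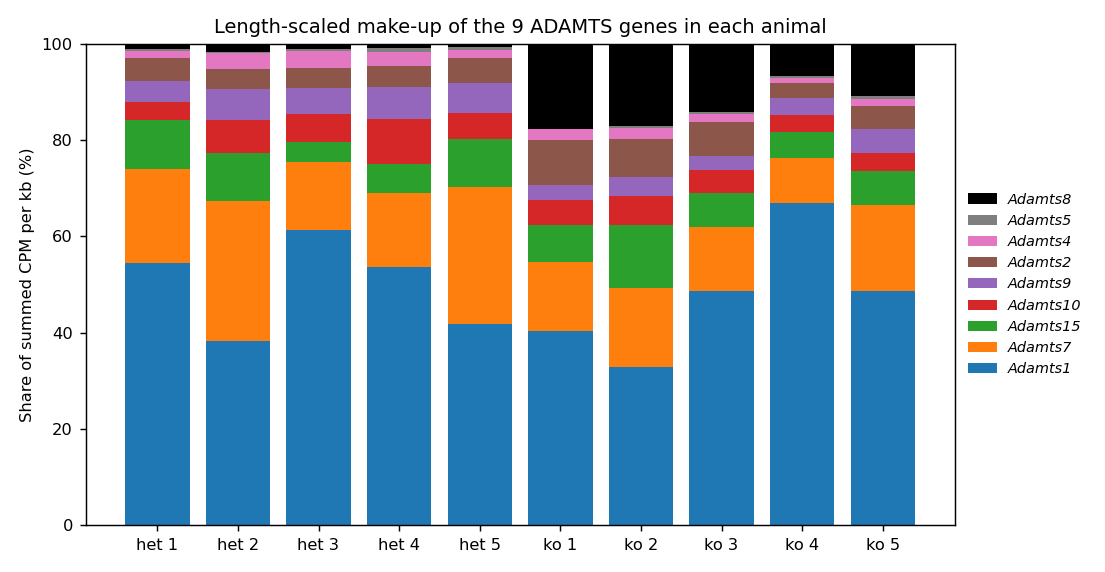
Share of each of the 9 ADAMTS genes in their summed CPM per kb, as a stacked bar for each mouse (het, heterozygote; ko, knockout). The black segment, Adamts8, is at most 1.76% in heterozygotes and 6.65% to 17.6% in knockouts, and Adamts1 (blue) is the largest segment in every mouse.

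Among the 19 ADAMTS genes in heterozygotes, Adamts1 had the highest level per length (23.2 ± 7.36 CPM per kb), followed by Adamts7 (9.69 ± 3.34) and Adamts15 (3.70 ± 1.55). The ranges of these 3 did not overlap from one to the next. Below them each gene's range overlapped that of the next in order: Adamts10 (2.80 ± 0.742), Adamts9 (2.66 ± 0.398), Adamts2 (2.07 ± 0.374), Adamts3, Adamts19, Adamts4 (1.18 ± 0.530), Adamts17, Adamts6, Adamts8 (0.482 ± 0.264), Adamts12 and Adamts5 (0.227 ± 0.0843). In knockouts Adamts1 was again highest (23.6 ± 10.6 CPM per kb), and Adamts7 (6.67 ± 1.15) and Adamts8 (6.10 ± 1.41) followed with overlapping ranges. By group mean, Adamts8 thus went from rank 12 to rank 3 of 19. Adamts7, at rank 2, was above Adamts8 in only 2 of 5 knockouts. Adamts8 was above Adamts15 in 5 of 5 knockouts, although the group ranges of these 2 genes overlapped.

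Adamts8 and Adamts15 are neighbours on chromosome 9 and lie head to head, with 20.1 kb between their gene models and no overlapping exon in the table's annotation. As a share of the pair's summed level per length, Adamts8 was 8.86%, 15.03%, 18.6%, 11.8% and 5.14% in heterozygotes 1 to 5. In knockouts 1 to 5 it was 69.4%, 56.3%, 66.8%, 54.3% and 61.0%. Adamts15 was thus the larger of the pair in every heterozygote and Adamts8 in every knockout. The next tested gene beyond Adamts8, the zinc-finger gene Zbtb44, 67.8 kb away, rose by less (43.0 ± 7.90 to 58.6 ± 6.25 CPM; log2 ratio 0.44, SE 0.129; adjusted p 0.0263). Snx19, 432 kb beyond Adamts15 and a sorting nexin, also rose (log2 ratio 0.31, SE 0.0903; adjusted p 0.0264). With the endothelial covariate, which itself differed between the groups, neither Zbtb44 nor Snx19 was called. Their log2 ratios were then 0.36 and 0.31 (edgeR adjusted p 0.222 and 0.147). Both calls also ended on leaving out single animals. For Zbtb44 these were heterozygote 3 or knockout 2 or 3 (adjusted p 0.0566 to 0.0688). For Snx19 they were heterozygote 4 or 5 or knockout 1 or 2 (adjusted p 0.0554 to 0.065). Adamts1 and Adamts5 are a second neighbouring pair, 55.0 kb apart on chromosome 16 and on the same strand. The tested gene next to Adamts1, App, the amyloid precursor protein gene 620 kb away, rose from 105 ± 16.7 to 161 ± 11.1 CPM (log2 ratio 0.62, SE 0.111; adjusted p 0.00148). The methyltransferase gene N6amt1, on the far side of Adamts5, was at 39.4 ± 5.08 and 37.1 ± 2.97 CPM (adjusted p 0.626).

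Genes that work with the ADAMTS enzymes, and genes of related proteases, were followed in 8 lists. The related proteases were the further ADAMTS genes, the ADAM genes and the matrix metalloproteases. The 8 lists held 86 genes in the table, of which 53 passed the filter and 11 were called, 10 higher and 1 lower. Among the 11 were Adamts14 and Adamts20, which passed the filter only through their knockout levels. The 11 are 20.8% of those tested, beside 18.9% of all genes. The median log2 ratio of the 53 was 0.03. ADAMTS-like proteins have the ancillary repeats without the protease, and several bind fibrillin microfibrils. Of 6 tested, 2 were called higher, beside 10.2% of all tested genes. Adamtsl5 had 36.2 to 81.0 CPM in heterozygotes and 147 to 216 CPM in knockouts, with all knockouts above all heterozygotes (58.5 ± 18.2 to 177 ± 33.4 CPM; log2 ratio 1.60, SE 0.198; adjusted p 7.91e-05). Thsd4, also known as Adamtsl6, which promotes fibrillin-1 assembly, rose from 8.15 ± 0.746 to 16.01 ± 4.35 CPM (log2 ratio 0.99, SE 0.183; adjusted p 0.0018). Adamtsl4 was at 63.3 ± 17.2 and 64.6 ± 12.7 CPM (adjusted p 0.931).

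Few genes of the hyaluronan and proteoglycan matrix were measurable: 4 of 15 passed the filter. Besides proteoglycans that the Adamts8 branch cuts, this list holds other matrix genes, such as hyaluronan synthases and link proteins. Cd44, a cell-surface hyaluronan receptor, rose in this list, from 17.9 ± 5.32 to 52.2 ± 10.9 CPM (log2 ratio 1.55, SE 0.196; adjusted p 8.98e-05). Its 5 knockouts, at 43.1 to 70.1 CPM, were above all heterozygotes, at 11.4 to 23.5 CPM. Versican itself (Vcan) was at 7.39 ± 1.66 and 9.12 ± 3.35 CPM (log2 ratio 0.32, SE 0.238; adjusted p 0.394). Aggrecan (Acan) was below the filter, at 0.494 ± 0.354 and 0.615 ± 0.698 CPM.

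Of 12 tested procollagens, microfibril proteins and other substrates or partners, 1 was called higher, beside 10.2% of all tested genes. That was Fbn2, fibrillin-2, a microfibril protein abundant in fetal tissue, which went from 29.1 ± 5.55 to 96.2 ± 20.1 CPM (log2 ratio 1.73, SE 0.158; adjusted p 6.47e-06). Fbn1, the gene of fibrillin-1, was at 34.2 ± 7.99 and 37.1 ± 6.69 CPM (adjusted p 0.649). The procollagens cut by the Adamts2 branch did not pass the test: Col1a1 was at 56.6 ± 15.2 and 66.2 ± 20.03 CPM (adjusted p 0.53), and Col3a1 at 258 ± 52.8 and 243 ± 74.6 CPM (adjusted p 0.808). The fibulin gene Fbln1, a cofactor of Adamts1, was at 42.8 ± 11.4 and 29.4 ± 5.90 CPM (log2 ratio -0.54, adjusted p 0.0511). Fbln1 was called lower under 9 of 22 alternatives, DESeq2, limma-voom, the endothelial covariate and omission of heterozygote 3, heterozygote 4 or knockout 5 among them (adjusted p 0.0116 to 0.047 over the 9).

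Among 6 tested inhibitors and clearance receptors, edgeR called 0, with 2 at an unadjusted p below 0.05, and DESeq2 and limma-voom each called 1. Timp3, the tissue inhibitor known to block ADAMTS enzymes, was at 89.1 ± 34.2 and 138 ± 41.6 CPM (log2 ratio 0.63, SE 0.239; adjusted p 0.0805, and 0.037 by DESeq2). Without heterozygote 4, its adjusted p in edgeR was 0.0114. Timp2, the most abundant inhibitor in heterozygotes, was at 124 ± 9.37 and 126 ± 10.6 CPM (adjusted p 0.915). Of the 6 tested maturation enzymes, Furin, the convertase that removes the propeptide, rose from 153 ± 32.2 to 231 ± 26.5 CPM without overlap (log2 ratio 0.59, SE 0.140; adjusted p 0.00891, and 0.174 with the endothelial covariate). Another convertase gene, Pcsk6, was at 4.399 ± 2.13 and 2.40 ± 0.627 CPM (log2 ratio -0.90, adjusted p 0.069), and was called lower by DESeq2, with the expression of Y-linked genes as a covariate, and without heterozygote 3 or heterozygote 4 (adjusted p 0.0299 to 0.0401). The fucosyltransferase gene Pofut2, which modifies thrombospondin repeats, was at 81.8 ± 6.99 and 75.9 ± 3.66 CPM (adjusted p 0.421).

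In the related metalloprotease families, 2 of 6 tested ADAM genes and 1 of 6 tested matrix metalloproteases were called, beside 18.9% of all tested genes. With so few genes, nothing is read from these counts about the families. Mmp23, a membrane-anchored member released by furin-like cleavage, rose from 1.85 ± 0.584 to 19.6 ± 6.09 CPM (log2 ratio 3.38, SE 0.262; adjusted p 1.23e-06), with heterozygotes at 1.08 to 2.66 and knockouts at 13.4 to 27.3 CPM. It was 1 of 6 matrix metalloproteases tested, and the most abundant of the others, Mmp15, was at 170 ± 22.97 and 157 ± 13.6 CPM (adjusted p 0.484). Of 6 ADAM genes tested, Adam9, a membrane-bound sheddase, rose from 64.3 ± 6.23 to 113 ± 17.1 CPM (log2 ratio 0.81, SE 0.114; adjusted p 0.000232). Adam22, a catalytically inactive member, fell from 15.2 ± 1.12 to 10.4 ± 2.33 CPM (log2 ratio -0.55, SE 0.158; adjusted p 0.0253). The call on Adam22 ended with the endothelial covariate (adjusted p 0.224), with the fibroblast covariate (adjusted p 0.0546), with scaling by library totals (adjusted p 0.0622), and without heterozygote 1, knockout 1 or knockout 3 (adjusted p 0.0543 to 0.0668).

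**Figure D4:**
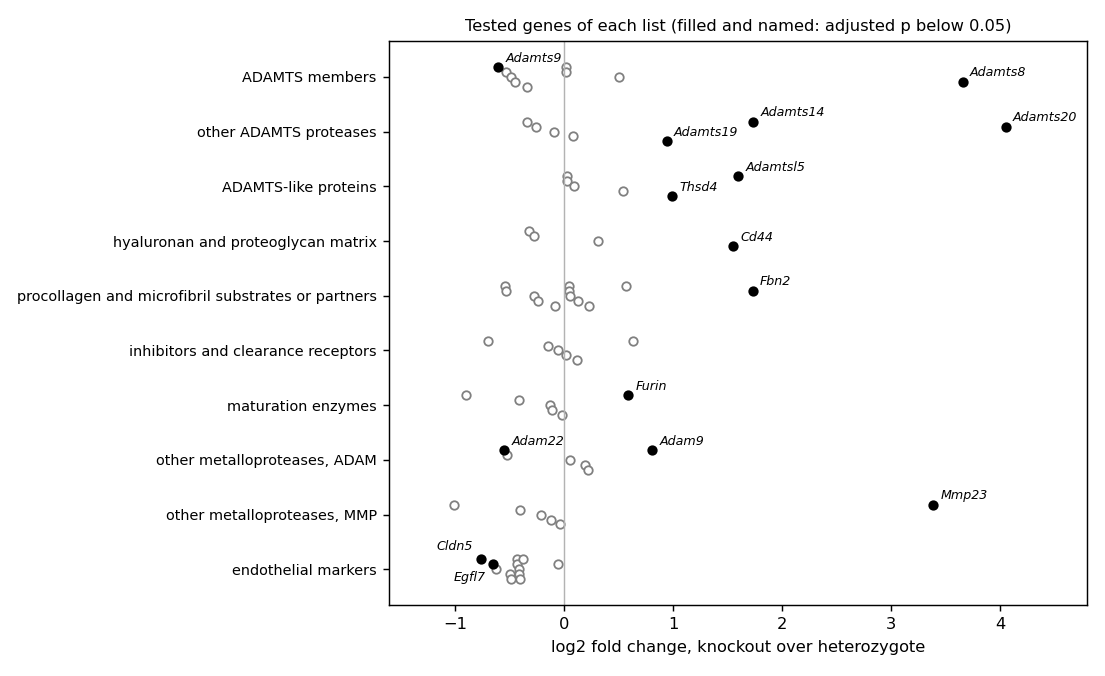
Log2 fold change of each tested gene by list, 1 point a gene, with the 9 ADAMTS members in the top row and 12 endothelial markers in the bottom row; filled points have an adjusted p below 0.05 and are named. For the 9 members, Adamts14 and Adamts20 the fill is a description, not a test. Adamts20, Adamts8 and Mmp23 are the points above 3, and the endothelial markers all lie below zero.

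The genes whose pattern over the 10 mice was most like that of Adamts8 were Sh3rf3, Gnao1, Arnt2, Nppa and Mybpc2, out of 11816 compared. Likeness was the root mean square difference of log2 CPM after each gene was centred on its own mean, and it ran from 0.295 for Sh3rf3 to 0.449 for Mybpc2. Nppa, the atrial natriuretic peptide gene, was at 107 ± 67.7 and 1709 ± 539 CPM. Gnao1, a G-protein alpha subunit, was at 5.06 ± 1.34 and 67.7 ± 26.5 CPM. Arnt2, a partner of PAS-domain transcription factors, was at 0.378 ± 0.165 and 6.59 ± 1.47 CPM, and Mybpc2, the fast-type myosin-binding protein C, at 36.9 ± 12.6 and 291 ± 46.9 CPM. Sh3rf3 was at 0.148 ± 0.106 and 2.504 ± 0.543 CPM, so its heterozygote level was near the worth of 3 counts. These 5 were picked for likeness to a gene whose groups stand apart, so their own separation is no finding. The genes most like Adamts15 were Kctd7, Npm3, Slc46a1, Cyb5d1 and Gpr153, at 0.237 to 0.261, with log2 ratios from -0.11 to 0.26.

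Markers of cells other than cardiomyocytes were present in all libraries. Fibroblast markers summed to 338 to 555 CPM in heterozygotes and 324 to 657 CPM in knockouts, with 3 of 10 tested above zero and a median log2 ratio of -0.24. Smooth-muscle and pericyte markers summed to 512 to 748 and 587 to 739 CPM, with 1 of 9 called, beside 18.9% of all tested genes. The gene called was Cspg4, the NG2 proteoglycan gene, which rose from 37.0 ± 6.39 to 132 ± 21.3 CPM. The median of the list was -0.33. Endocardial markers summed to 70.9 to 217 and 93.9 to 137 CPM. Macrophage and leukocyte markers summed to 16.8 to 46.3 CPM in heterozygotes and 11.1 to 14.1 CPM in knockouts, with all 6 tested below zero and Csf1r called. Epicardial markers summed to 4.33 to 20.8 and 4.06 to 8.09 CPM and Schwann cell markers to 3.55 to 4.87 and 3.22 to 6.85 CPM. Red blood cells could not be judged from the 4 globin genes, which were listed at 0 in every library. Hba-a1 and Hba-a2 overlap each other's exons in the annotation, as do Hbb-b1 and Hbb-b2, and reads that fit more than 1 gene were not counted. The other red blood cell marker in the table, Alas2, was below the filter, at 0.625 ± 0.477 CPM in heterozygotes and 0.413 ± 0.200 CPM in knockouts. With the endothelial, fibroblast or smooth-muscle and pericyte marker level as a covariate, the log2 ratio of Adamts8 was 3.53, 3.75 and 3.61, and that of Adamts20 was 3.72, 4.07 and 4.03. The smooth-muscle and pericyte level includes Cspg4. Its mean log2 CPM was 4.93 in heterozygotes and 5.02 in knockouts, although 6 of the 9 genes had log2 ratios below zero. The macrophage and leukocyte level, which differed most between the groups (1.48 and 0.768), was not used as a covariate. Which cells the ADAMTS counts came from was not tested, Adamts8 and Adamts20 included.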

How the data were processed

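Counts were taken as deposited: per the file headers, the authors counted reads per gene with featureCounts 1.5.1 on 4 threads with no other option, so single reads were counted without strand and multi-mapping or ambiguous reads were left out. Per the file headers, the annotation was a UCSC mm10 gene set from a 2012 archive. The submitters' processing notes list CASAVA 1.8, STAR 2.5.3a, featureCounts, Subread 1.5.2 and mm10. Per the labels' protocols, 10 ng of RNA was amplified by the SMART-Seq v4 kit, without molecular identifiers, so limits from counts cover counting error only. The table has 23337 genes and 14 count columns; 4 columns match no sample of this series and were not used.

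Genes were filtered with filterByExpr (minimum count 10, minimum total 15), which left 11870, and fitted over all 10 mice with edgeR 4.0.16 (R 4.3.3; quasi-likelihood F test, TMM scaling, Benjamini-Hochberg adjustment over all tested genes, threshold 0.05). The SE is the log2 fold change over the square root of F. The steps were tested on simulated data. Means and SD are of CPM over 5 mice, and levels per kb use the exonic length in the table. Log2 CPM used a prior count of 1. Marker covariates are mean log2 CPM of a list.

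The 9 members, the companion lists and the marker lists were chosen with earlier results of these data known. Named are all ADAMTS genes; in each companion list the called genes, up to 4, or else the 2 most abundant; the nearest tested genes beside Adamts8, Adamts15, Adamts1 and Adamts5; and the 5 genes most like Adamts8 and Adamts15 with a mean of at least 1 CPM. Other genes of the lists were named for their role after their values were seen. Alternatives were DESeq2 1.42.0, limma-voom (limma 3.58.1), other scalings, no filter, thinning to the smallest library, marker covariates, a replicate block and leaving out each mouse. Matching replicate numbers in the titles were not taken as pairs in the main fit. Deviations of same-numbered mice correlated from -0.0604 to 0.185, and those of mice with different numbers from -0.164 to 0.248. These ranges do not settle whether the numbers mark pairs, and the replicate block is the fit that treats them so.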

Additional observations from a re-analysis of the deposited data

Results flagged for a closer look

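In 5 of 66 groups of 5 values examined, 1 sample lay far from the rest by Dixon's criterion (a gap above 0.71 of the group's range), where chance alone gives about 3. For Adamts15, knockout 2 was highest, at 5.07 log2 CPM, with the next knockout at 4.36. For Adamts12, knockout 2 was highest as well, at 1.10 log2 CPM, with the next at 0.52. For Adamts5, heterozygote 2 was lowest, at -0.29 log2 CPM, with the next at 0.91, on 6 counts. For the procollagen and microfibril list, the mean of heterozygote 5 was lowest, at 4.52 log2 CPM, with the next at 5.08. Among the totals, heterozygote 1 was highest, with 25237696 counts, and the next heterozygote had 10309615.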

How the results depend on the processing

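The counts of calls and the log2 fold changes of the genes named by rule, apart from those named for likeness alone, were recomputed under 22 alternatives, 10 of which left out 1 mouse; the share of Adamts8 had 12 of its own, and orders per kb, pair shares and likeness were not recomputed. As a description, the log2 fold change of Adamts8 was 3.46 to 3.92 with a mouse left out and 3.53 to 3.83 otherwise. Adamts20, which passed the filter only through its knockout levels, was called in all 22, again as a description. The number of companion genes called stayed between 8 and 15 (11 as reported, Adamts14 and Adamts20 among them). Adamts14 too passed the filter only through its knockout levels. With the endothelial marker covariate, which itself differed between the groups, 1117 genes were called in place of 2241; leaving out 1 mouse gave 1699 to 2258. Of the 9 members 2 were called as reported, 1 after thinning, and 1 to 3 with a mouse left out. All calls on members here are a description, since this contrast chose the set. With the replicate block, 4 of the 9 members were called, Adamts2 and Adamts7 being the ones gained; Timp3 was called higher (adjusted p 0.0277), Timp4 (adjusted p 0.0462), Fbln1 (0.0134) and Adam15 (0.0194) lower, and 2182 genes in all; 2 of 5 heterozygotes correlated best with the knockout of their own number. Adamts9 was not called with library totals (log2 fold change -0.51), after thinning (-0.53), with the endothelial covariate (-0.59), or without heterozygote 2, knockout 1, knockout 2 or knockout 3 (-0.52 to -0.58). The difference between groups in the share of Adamts8 was 12.3 percentage points per length and 9.39 from raw counts, which weight long genes more. Small log2 fold changes changed sign: Adamts3 (-0.09) was 0.030 without heterozygote 1 and 0.00013 without knockout 4 (range with 1 mouse left out -0.16 to 0.030); Adamts6 (0.08) was -0.22 with the endothelial covariate and -0.082 without knockout 5 (range -0.082 to 0.21); Adamts12 (-0.26) was 0.11 with voom and 0.38 with the endothelial covariate; Timp2 (0.02) was -0.0091 with upper-quartile scaling, -0.016 with voom, -0.041 with the endothelial covariate, and -3.06e-05, -0.0033, -0.0086 and -0.014 without heterozygote 2, heterozygote 4, knockout 4 and knockout 5 (range -0.014 to 0.060). Adamts1 (0.02) ranged from -0.28 to 0.16 with a mouse left out and from -0.18 to 0.29 otherwise, and Adamts15 (0.02) from -0.17 to 0.23 and from -0.22 to 0.11. Genes called under some alternatives but not as reported were Fbln1 (9 of 22), Adamts7 (5), Timp3, Pcsk6 and Adam15 (4 each), Adamts2 and Mmp2 (3 each), Adamtsl2 (2) and Timp4 (1). The causes were not tested. Scaling by library totals moved the median of all genes to 0.0839. Depth limits Adamts5, Adamts12, Adamts14, Adamts16 and Adamts13, which had few counts per library. It also limits the heterozygote levels of Adamts20 (2 to 14 counts) and Adamts8 (7 to 47 counts), on which their log2 fold changes rest.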
